A study of Mus musculus with 24 samples.

Results

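The heat shock proteins and DnaJ co-chaperones measured here were the genes whose symbols begin with Hspa, Hspb, Hspd, Hspe, Hsph or Dnaja, Dnajb, Dnajc and a number. This gave 67 of the 21370 genes with a symbol on the array, 23 of them heat shock protein genes and 44 DnaJ genes. The choice used the symbol alone and no measured value. Among the 67 were 8 small heat shock proteins, 10 members of the HSP70 family, 3 members of the related HSP110 family, the mitochondrial pair HSP60 and HSP10, and 4, 12 and 28 DnaJ proteins of classes A, B and C.

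Skeletal muscle, heart, liver and brain of 6 female mice were profiled on 24 single-colour Agilent arrays. Mice A, B and C, with the label RAP1 MUT and called KI, carried the knockin change I312R in the shelterin protein RAP1, which removes its binding to TRF2, and mice D, E and F were wild type (WT). The knockin was made with CRISPR/Cas9 and is carried in every cell, and the line was crossed back to C57BL/6N mice. The study gives the KI females of its arrays as homozygous, which the labels do not state. The age was 14 months for mice C and F and 15 months for the other 4, no mouse received a treatment per the labels, and each mouse gave all 4 tissues.

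HSP70 proteins bind unfolded stretches of other proteins and release them in a cycle driven by ATP. DnaJ proteins bring clients to HSP70 and start ATP hydrolysis through their J domain, whereas HSP110 proteins are among the factors that exchange the nucleotide and reset the cycle. Small heat shock proteins hold unfolding proteins without using ATP, and striated muscle, with its load-bearing filaments, is known for high levels of several of them.

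Levels are given on a log2 scale relative to the 75th percentile of the processed signal on each array, so that 0 is the signal at that percentile. They compare samples for 1 probe and do not compare probes with each other. That percentile ranged from 312.4 to 2510.4 signal units, and the share of probes well above background ranged from 49.4% to 68.4%. Of the 67 genes, 53 were well above background on all 24 arrays, 2 (Dnajb7 and Dnajc5g) were so on none, and 64 could be tested across WT tissues. Terf2ip, the gene of RAP1, was well above background on all 24 arrays, and its KI minus WT difference lay between -0.33 in liver (adjusted p = 0.518) and -0.08 in muscle (adjusted p = 1). Since the knockin changes an amino acid, the transcript level does not check the labels.

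Several arrays carried transcripts of another tissue. Summed levels of 6 skeletal muscle markers were 3.85 in the liver of KI mouse C and -2.44 to -1.26 in the other livers. Summed levels of 5 hepatocyte markers were 7.75 in the brain of KI mouse C and 3.01 to 3.55 in the other brains. In the muscle of KI mouse B, summed levels of 5 mammary markers were 3.01, against -1.99 to -1.64 in the other muscles. The brown fat marker Ucp1 was at 2.60 in the muscle of WT mouse D and 2.92 in that of KI mouse B. The other muscles lay at -6.60 to -1.89. Cidea was at 4.20 and 4.13 in the same muscles, against -1.71 to 1.04 in the others. Summed levels of 3 white fat markers were 2.28 in the heart of KI mouse B and -0.76 to 0.51 in WT hearts. The atrial light chain Myl7 was at 7.44 in the heart of KI mouse B and 4.28 in that of WT mouse E, against -3.26 to 0.19 in the other hearts. In bulk tissue, fewer cells of a type and less RNA per cell cannot be told apart. All liver arrays lay on 1 slide and all muscle arrays on another, while brain and heart arrays were spread over 2 slides each, so slide and tissue are partly confounded.

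Nearly every member differed between WT tissues. By limma's moderated F-test over the 12 WT arrays, 61 of the 64 tested members (95.3%) differed at an adjusted p under 0.05, which was the case for 95.0% of all 17096 genes tested. The 3 exceptions were Dnajb2, Dnajc13 and the HSP70 family member Hspa13, with adjusted p-values of 0.108, 0.0771 and 0.109. The highest and lowest tissue means of a member were apart by 1.88 (log2) in the median of the 64. The highest mean was found in muscle for 25 members, in liver for 16, in brain for 12 and in heart for 11, and the lowest mean was found in brain for 31.

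**Figure D1:**
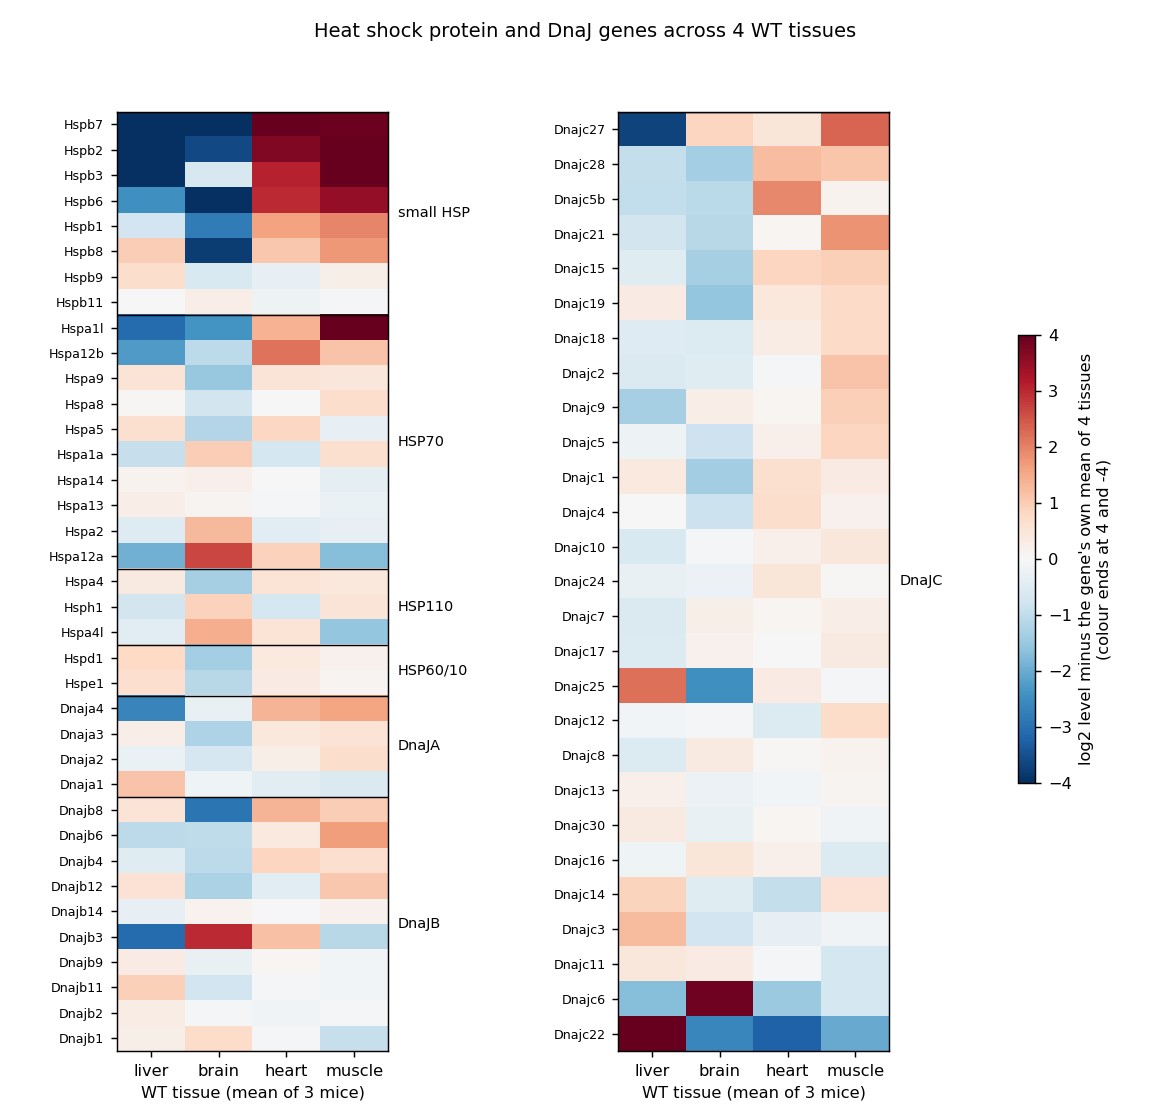
Each row is 1 of the 64 members tested and each column a WT tissue (mean of 3 mice). Colour gives the log2 level minus that gene's own mean of the 4 tissues, ending at 4 and -4, so rows show patterns and not levels between genes. The upper rows of the small HSP block are dark red in heart and muscle and blue in liver or brain, and brain is the lowest tissue for 31 of the 64 rows.

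Most of the small heat shock proteins separated striated muscle from liver and brain. Across all members, 22 of 64 (34.4%) were higher in heart and skeletal muscle than in liver and brain, with an adjusted p under 0.05 and a log2 difference of at least 1, beside 23.3% of all genes tested. Only 3 members (4.69%) were lower, beside 23.9% of all genes. Among the 8 small heat shock proteins, 6 were higher and none was lower, with a median difference of 5.03. The median was 0.55 over all 64 members and 0.08 over all genes. RNA of heart and muscle had been extracted with another kit than RNA of liver and brain, and kit and tissue type cannot be told apart.

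Hspb7, a small heat shock protein known from heart and skeletal muscle, had levels of 5.37, 5.39 and 5.18 in the hearts and 2.65, 2.19 and 3.95 in the muscles of WT mice D, E and F. Its levels were -6.81, -5.25 and -3.42 in their livers and -6.90, -7.28 and -7.14 in their brains, and 5 of these 6 arrays were not well above background. The groups did not overlap, and Hspb7 was at least 759-fold higher in striated muscle (log2 difference as measured 10.26, SE 0.50, adjusted p = 1.9e-08).

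Hspb2 lay at 5.78 to 5.82 in WT hearts, 6.02 to 6.29 in WT muscles, -2.21 to -1.84 in WT livers and -1.94 to -1.32 in WT brains. It was 218-fold higher in striated muscle (7.77, SE 0.13, adjusted p = 1.18e-11). Its level was also -0.94 in the liver of KI mouse C, above the other 5 livers (-2.21 to -1.84), and this is the liver that carried skeletal muscle transcripts. The part of those transcripts in the value was not tested. Hspb3, which forms a complex with the product of Hspb2, lay at 2.54 to 2.72 in WT hearts, 3.83 to 4.58 in WT muscles and -1.61 to -0.55 in WT brains and was not well above background in any WT liver. It was at least 90.7-fold higher in striated muscle (7.61, SE 0.29, adjusted p = 2.88e-09) and at least 136-fold lower in liver than in the other tissues.

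Hspb6, also called HSP20, was in turn 91.4-fold higher in striated muscle (6.51, SE 0.11, adjusted p = 1.34e-11). Its WT levels were 0.51 to 0.77 in brain, 2.10 to 2.29 in liver, 7.60 to 7.68 in heart and 7.87 to 8.45 in muscle. Hspb1, or HSP27, which binds and protects actin filaments, was high in all tissues but lowest in brain. Its levels in WT mice D, E and F were 7.34, 7.25 and 7.52 in heart, 7.52, 7.87 and 7.78 in muscle, 5.12, 5.01 and 4.92 in liver, with a mean of 2.97 ± 0.12 (SD, n = 3) in brain, and heart and muscle did not overlap with liver or brain. The striated muscle difference was 3.55 (SE 0.09, adjusted p = 2.35e-10), or 11.7-fold.

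Hspb8, also among the 6 small heat shock proteins called higher in striated muscle, had a different pattern. Its protein works with the HSP70 exchange factor BAG3 in the disposal of damaged filament proteins. WT levels were 4.50 to 5.03 in heart and 4.30 to 5.06 in liver, muscle had a mean of 5.47 ± 0.59 (SD, n = 3), and these 3 tissues overlapped, with -0.48 to 0.55 in brain. Hspb8 was thus 33.0-fold lower in brain than in the mean of the other tissues (-5.04, SE 0.28, adjusted p = 4.5e-08). Hspb9 and Hspb11 were the small heat shock proteins that were not called in striated muscle, and Hspb11, which also serves in cilia, lay between 1.47 and 2.12 on all 12 WT arrays.

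**Figure D2:**
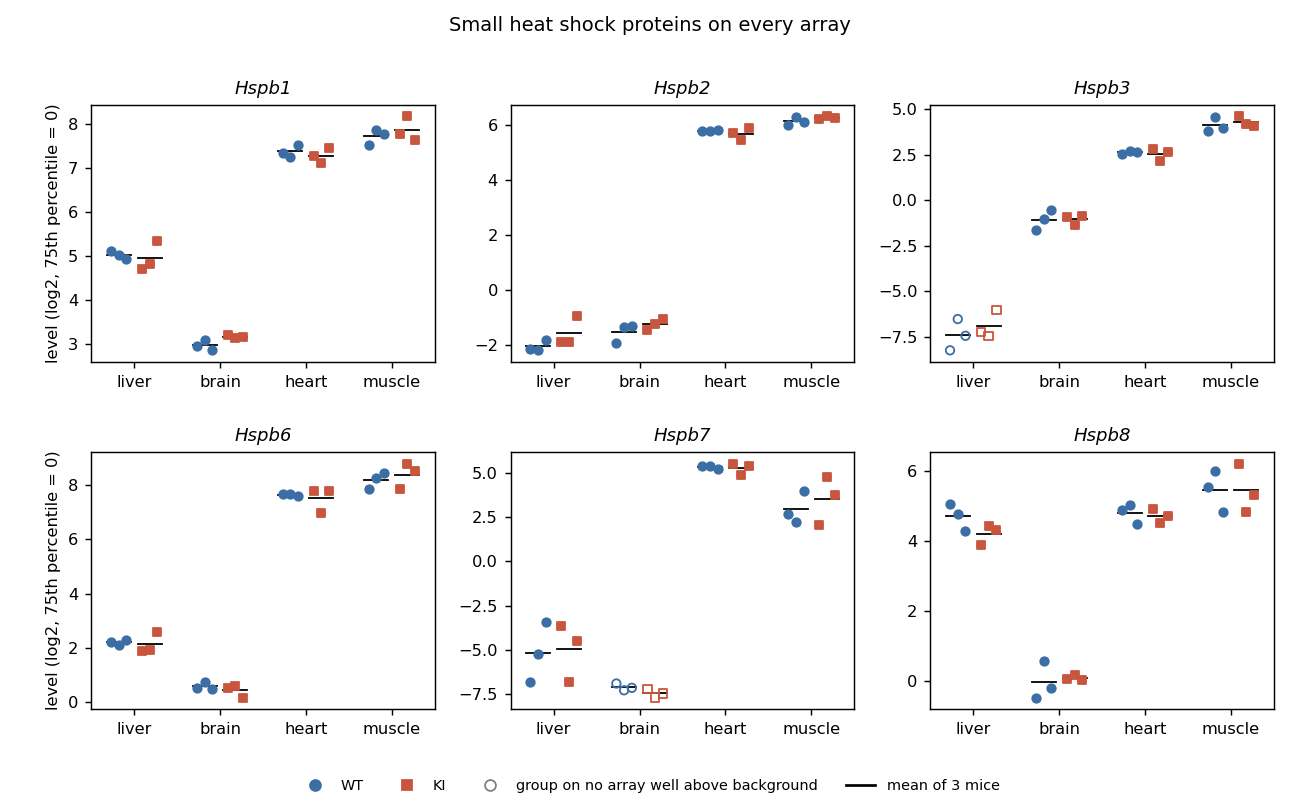
Levels (log2, 75th percentile of the array = 0) of 6 small heat shock proteins in each of the 24 samples, by tissue, with circles for WT, squares for KI, open symbols for groups with no array well above background and lines for means of 3 mice. Heart and muscle lie above liver and brain for Hspb7, Hspb2, Hspb3, Hspb6 and Hspb1, whereas liver lies with heart and muscle for Hspb8.

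Beyond the small heat shock proteins, striated muscle was higher for 2 of 10 HSP70 members and none of the 3 HSP110 members. Among DnaJ genes it was higher for 1 of 4 of class A, 3 of 10 tested of class B and 10 of 27 tested of class C. The share of all genes tested was 23.3%, and the classes are small. Hspa1l, an HSP70 member known from testis, had WT levels of 1.61 to 2.43 in muscle, -0.85 to -0.53 in heart, -4.56 to -4.38 in brain and -5.39 to -4.90 in liver. It was at least 38.8-fold higher in striated muscle than in liver and brain (5.46, SE 0.15, adjusted p = 3.19e-10) and 6.34-fold lower in heart than in skeletal muscle. Hspa12b, a distant HSP70 relative known from endothelial cells, was 9.95-fold higher (3.31, SE 0.15, adjusted p = 9.21e-09). Dnaja4, a cytosolic class A protein, was 7.70-fold higher (2.94, SE 0.14, adjusted p = 1.59e-08), with 4.37 to 4.87 in WT heart and muscle, 2.71 to 3.08 in brain and 0.20 to 0.93 in liver.

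Dnajb6, a suppressor of protein aggregation whose human counterpart is mutated in a limb-girdle muscular dystrophy, was 4.22-fold higher in striated muscle (2.08, SE 0.12, adjusted p = 6.51e-08). Its levels in WT mice D, E and F were 5.01, 5.23 and 4.97 in muscle, 3.78, 3.71 and 3.88 in heart, 2.11, 2.16 and 2.73 in liver and 2.43, 2.23 and 2.45 in brain. Liver and brain overlapped, heart lay above both and muscle above heart. Dnajc15 and Dnajc19, DnaJ proteins of the mitochondrial inner membrane import motor, were higher by 1.82 (SE 0.09, adjusted p = 1.67e-08) and 1.20 (SE 0.10, adjusted p = 1.54e-06). The 3 members lower in striated muscle were Dnajc22, Dnajc6 and Hspa4l, each of which was high in liver or brain.

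Brain stood out by low levels of members. In the contrast of brain against the mean of the other 3 tissues, 29 of 64 members were lower (45.3%, beside 31.4% of all genes tested) and 8 were higher (12.5%, beside 24.8%). The median difference was -0.83 over members and -0.28 over all genes. Among the lower members were 6 of 8 whose proteins work in mitochondria and 4 of 7 that work in the lumen of the endoplasmic reticulum (ER), groups formed after the values were seen from the known location of the proteins.

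Hspa9, the mitochondrial HSP70 that pulls imported proteins into the matrix, had levels of 3.23, 3.36 and 3.42 in the brains of WT mice D, E and F and of 5.22 to 5.57 on their 9 other arrays. The brains did not overlap with any other tissue, and the difference was -2.04 (SE 0.11, adjusted p = 2.45e-08). Hspd1 and Hspe1, which encode HSP60 and HSP10, the chamber and the lid of the mitochondrial chaperonin, lay at 4.33 to 4.77 and 3.78 to 4.19 in WT brain. On the other WT arrays they lay at 6.14 to 6.84 and 5.12 to 6.08. Their differences were -1.81 (SE 0.12, adjusted p = 1.3e-07) and -1.49 (SE 0.13, adjusted p = 1.36e-06), and the import motor member Dnajc19 and the matrix DnaJ protein Dnaja3 differed by -2.05 and -1.66. Mitochondrial Dnajc11 and Dnajc30 were not called. In the ER, the HSP70 protein BiP (Hspa5) was lower in brain by 1.54 on the log2 scale (-1.54, SE 0.14, adjusted p = 2.48e-06).

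The 8 members higher in brain included Dnajc6, which encodes auxilin, the DnaJ protein that strips clathrin from synaptic vesicles together with HSP70. Its levels were -1.70, -2.40 and -1.37 in the brains of WT mice D, E and F and -1.67, -1.91 and -1.95 in those of KI mice A, B and C. On all other WT arrays it was not well above background, and it was at least 8.47-fold higher in brain (measured difference 5.20, SE 0.31, adjusted p = 7.37e-08). Dnajb3 and Hspa12a were at least 6.93-fold and at least 10.4-fold higher.

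Hspa4l, an HSP110 member, was 3.87-fold higher in brain (1.95, SE 0.13, adjusted p = 1.37e-07), with 3.32 to 3.64 in WT brains against 0.34 to 2.80 on the other WT arrays. Hspa2, an HSP70 with a role in germ cells, was 3.27-fold higher. From the heat shock response, Hspa1a (inducible HSP70) and the HSP110 member Hsph1, were higher by 1.33 (SE 0.27, adjusted p = 0.00103) and 1.24 (SE 0.20, adjusted p = 0.000219). For both of them brain overlapped with at least 1 other tissue. The probe of Hspa1a may also detect Hspa1b, its near-identical copy, for which no probe was matched. Dnajc5, the synaptic vesicle protein CSP alpha, was lower in brain than in the mean of the other tissues (-1.10, SE 0.26, adjusted p = 0.00248). Its WT brains (5.76 to 6.69) overlapped with its WT livers (6.34 to 7.38), and the probe of highest mean among its 3 probes was used.

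In liver, 8 members were higher than in the mean of the other tissues (12.5%, beside 23.5% of all genes tested) and 17 were lower (26.6%, beside 30.2%). Dnajc22 had levels of 4.89, 5.05 and 4.90 in the livers of WT mice D, E and F and was not well above background on 6 of the other 9 WT arrays, which made it at least 986-fold higher in liver (10.53, SE 0.46, adjusted p = 5.5e-09). In KI mice the livers lay at 4.77 to 5.01. The brain of KI mouse C had a level of -1.56, against -6.25 to -5.22 in the 5 other brains, and is the brain that carried hepatocyte transcripts; the part of those in the value was not tested.

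Dnajc25 was 7.74-fold higher in liver (2.95, SE 0.11, adjusted p = 1.59e-09) and 9.74-fold lower in brain (-3.28, SE 0.11, adjusted p = 1.18e-09), with no overlap of liver or brain with any other tissue. Its WT levels were 1.82 to 2.12 in liver, -0.02 to 0.17 in heart, -0.49 to -0.27 in muscle and -2.93 to -2.59 in brain. Of the 7 members of the ER lumen, a group formed after the values were seen, 2 were higher in liver and none was lower. Of all genes tested, 23.5% were higher and 30.2% lower. Dnajc3, an ER co-chaperone that also restrains the stress kinase PERK, lay at 2.83 to 3.11 in WT livers and 0.82 to 1.65 elsewhere (1.67, SE 0.10, adjusted p = 8.44e-08), and Dnajb11, a partner of BiP, was higher by 1.28. Dnajb9, another ER partner of BiP, was not called, with WT means of 2.34 in muscle, 2.53 in heart, 2.77 in liver and 2.16 in brain. In the cytosol, Dnaja1 was 2.89-fold higher in liver.

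**Figure D3:**
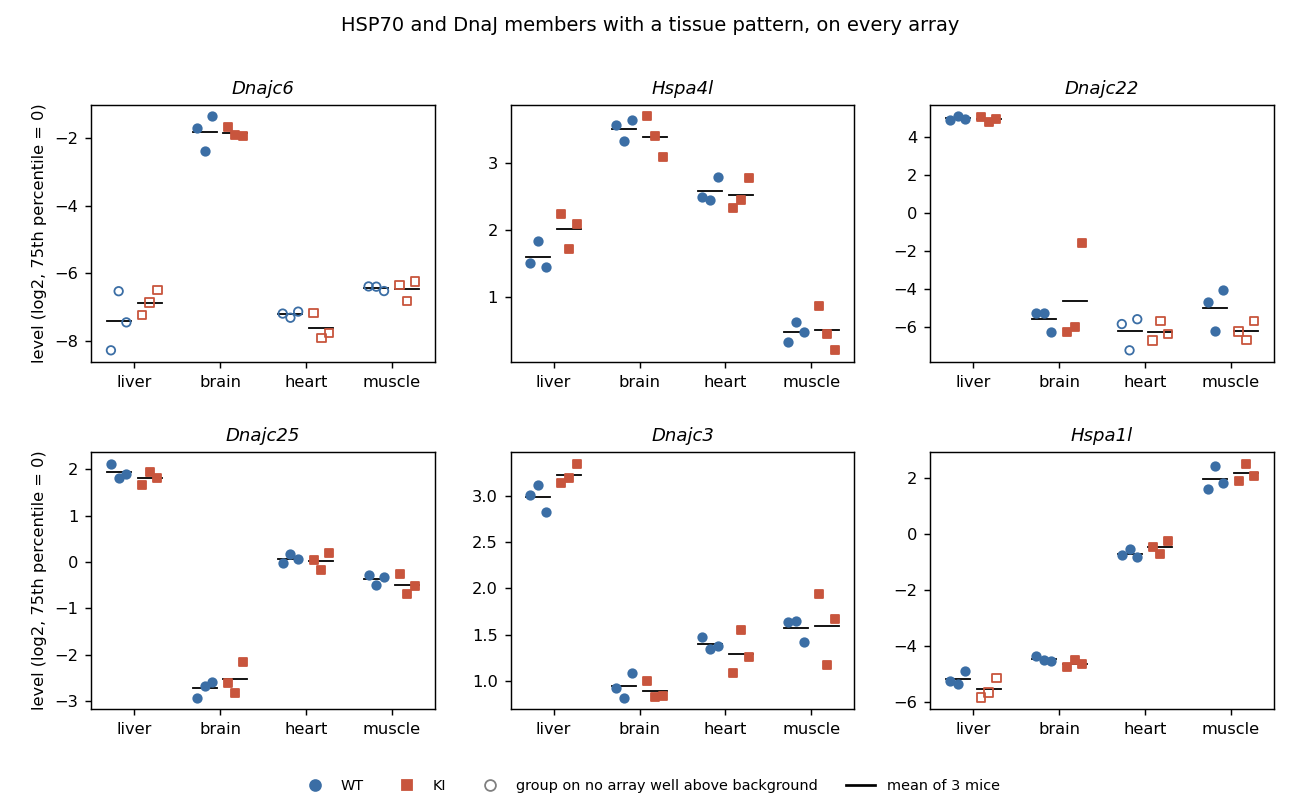
Levels (log2, 75th percentile of the array = 0) of 6 HSP70, HSP110 and DnaJ genes in each of the 24 samples, by tissue, with circles for WT, squares for KI, open symbols for groups with no array well above background and lines for means of 3 mice. Dnajc6 and Hspa4l are highest in brain, Dnajc22, Dnajc25 and Dnajc3 in liver and Hspa1l in muscle, and 1 KI brain lies at -1.56 for Dnajc22, above the other 5 brains.

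Heart and skeletal muscle differed from each other in fewer members. In heart, 7 of 64 were higher than in muscle (10.9%, beside 16.0% of all genes tested) and 11 were lower (17.2%, beside 14.5%). Hspa4l was 4.28-fold higher in heart (2.10, SE 0.16, adjusted p = 2.43e-06), with 2.45 to 2.80 against 0.34 to 0.63. BiP was 2.21-fold higher, and the lower members included Dnajb12, an ER membrane protein of protein disposal (-1.49, SE 0.10, adjusted p = 1.61e-06), Dnajc21, which serves in ribosome assembly (-1.72, SE 0.17, adjusted p = 1.9e-05), and Dnajb6 (-1.28, SE 0.17, adjusted p = 0.000132).

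The differences of Hspb7, Hspb3, Dnajb3 and Dnajc5b between heart and muscle were less firm. Hspb7 was higher in heart by 2.39 (SE 0.71, adjusted p = 0.0161), but without WT mouse E the difference was 1.97 (adjusted p = 0.182), and in the KI arrays it was 1.74 (adjusted p = 0.0981). Its levels in muscle varied with those of the slow and ventricular light chain Myl2. Hspb7 was at 2.04, 2.19, 2.65, 3.72, 3.95 and 4.76 in the muscles of mice A, E, D, C, F and B, in which Myl2 was at 1.34, 2.39, 5.93, 5.34, 7.51 and 8.83. The part of slow fibres in these values was not tested. Hspb3 was lower in heart by 1.48 on the log2 scale (-1.48, SE 0.40, adjusted p = 0.0107), and without WT mouse F the difference was -1.57 (adjusted p = 0.0757). Dnajb3 (2.28, adjusted p = 0.0222) lost its call without mouse E (1.89, adjusted p = 0.157) or mouse F (1.67, adjusted p = 0.22). Of the 3 WT muscles 1 had Dnajb3 well above background and none had Dnajc5b, so that the folds were bounds of at least 1.84-fold and at least 1.27-fold, below the fold threshold, and both depended on the background correction.

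The 3 KI mice gave arrays of other mice for the tissue patterns, though on the same slides and with the same kits. Of the members called in WT mice, all 37 were called in the same direction in KI mice for brain and 22 of 25 for liver. For striated muscle 20 of 25 were, and for heart against muscle 14 of 18. The same share over all genes is not given here, so these counts do not set the members apart from other genes.

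Promoter sequence was searched for the elements named after these responses. RefSeq promoter windows (GRCm38.p6, 250 bases before to 50 after a start) were given for 55 of the 67 members. The heat shock element, read by HSF1, was searched as GAANNTTCNNGAA or TTCNNGAANNTTC, which on the opposite strand read as each other. It was found for 4 of the 55 genes (7.27%), namely Dnajb6, Hspd1, Hspe1 and Hsph1, and for 0.662% of all 27025 genes with a window. The ER stress element was searched as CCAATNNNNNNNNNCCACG on both strands and was found for Hspa5 and Dnajc3 (3.64%) and for 0.137% of all genes. The matches of Hsph1 lie after its starts and are not shown. For the other genes, the stretches with an element before a start are shown 5′ to 3′ on the strand of the gene. The element is in capitals, with 20 bases on each side. A relation of the elements to the tissue patterns above was not tested for these stretches. They lie at chr5:29735832-29735884 (plus strand, Dnajb6), chr1:55088039-55088096 (minus strand, Hspd1; plus strand, Hspe1), chr2:34772005-34772063 (plus strand, Hspa5) and chr14:118937807-118937865 (plus strand, Dnajc3).
Dnajb6: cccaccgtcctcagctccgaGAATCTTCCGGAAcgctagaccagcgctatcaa
Hspd1: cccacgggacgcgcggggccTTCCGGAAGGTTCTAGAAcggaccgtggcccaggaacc
Hspe1: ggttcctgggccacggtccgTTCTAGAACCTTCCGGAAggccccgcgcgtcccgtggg
Hspa5: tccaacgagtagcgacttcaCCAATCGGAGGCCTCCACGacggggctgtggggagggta
Dnajc3: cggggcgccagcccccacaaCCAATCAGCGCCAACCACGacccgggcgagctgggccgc

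Hspd1 and Hspe1 are transcribed away from each other, with 215 bases between their starts, and the same stretch, which holds 2 overlapping matches, lies before both. Hspd1 has 2 annotated starts, and the stretch was found only in the window of the start used for this distance. The pair had parallel tissue patterns, with both lowest in brain and highest in liver. No match was found in the windows of Hspa1a and Dnajb1, which says only that these letters are not in those windows. A match describes the sequence and is not a measurement of factor binding.

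Other genes of chaperone pathways, outside the family, were compared in the same tissue contrasts. Of 14 unfolded protein response genes, 9 were higher in liver and none was lower, beside 23.5% and 30.2% of all genes, with Edem1 (4.04, SE 0.13, adjusted p = 4.64e-10) and the disulfide isomerase Pdia4 (3.40, SE 0.19, adjusted p = 4.95e-08) among them. In striated muscle 4 of the 14 were lower and none was higher, beside 23.9% and 23.3% of all genes. Of 14 HSP70 exchange factors and co-chaperones, 7 were lower in brain and none was higher, beside 31.4% and 24.8% of all genes. In striated muscle 3 of these were higher and 3 lower, beside 23.3% and 23.9% of all genes. Bag3, the partner of Hspb8, was lower in brain by 4.07 on the log2 scale (-4.07, SE 0.21, adjusted p = 2.37e-08) and higher in striated muscle by 3.01 (SE 0.18, adjusted p = 9.55e-08). Cryab, the alpha B crystallin related to the small heat shock proteins, was higher in striated muscle by 5.21 (SE 0.11, adjusted p = 7.29e-11). The other alpha crystallin, Cryaa, was lower there (measured difference -1.47, SE 0.37, adjusted p = 0.00434), with 1 of 3 WT hearts and 1 of 3 WT muscles well above background. In the HSP90 family of 4 genes, Hsp90aa1 was higher in brain (1.62, SE 0.11, adjusted p = 2.1e-07), while the mitochondrial Trap1 was lower in brain (-1.78, SE 0.11, adjusted p = 9.54e-08), and in striated muscle 1 of the 4, Hsp90aa1, was lower (-1.21, SE 0.10, adjusted p = 8.13e-07). Of 3 heat shock factors, Hsf1 was higher in striated muscle (1.20, SE 0.16, adjusted p = 5.84e-05), and of 6 HSP90 co-chaperones, Fkbp5 and Fkbp4 were higher in liver. None of the 8 subunits of the cytosolic chaperonin TRiC was called in any of the 4 contrasts by limma. At an unadjusted p under 0.05, 4 or 5 of the 8 passed in each contrast, with differences under 1 in size. Of all 17096 genes tested, 9323 to 13679 had an adjusted p under 0.05 by limma without the fold threshold, which is a stricter threshold than an unadjusted p. The count of all genes at an unadjusted p is not given here.

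No member differed between KI and WT mice at an adjusted p under 0.05 by limma in liver (0 of 56), brain (0 of 60), heart (0 of 62), muscle (0 of 59) or the mean of the 4 tissues (0 of 64), and the same was true of all genes, of which 0% were called in each comparison. At an unadjusted p under 0.05, 4 members passed in liver (7.14%, beside 11.8% of all genes) and none in brain (beside 0.790%), heart (beside 1.63%) or muscle (beside 0.866%). In the mean of the 4 tissues 1 passed (1.56%, beside 3.45%). On simulated data made from these arrays, 81 of 100 genes changed by 2 (log2) were recovered in liver, 85 in brain, 69 in muscle and 87 in heart. Of 100 changed by 1, 52, 51, 22 and 60 were recovered in the same order. At either size of change there were also 14 false calls in liver, 3 in brain, 7 in muscle and 13 in heart. The pathway lists held 0 genes with an adjusted p under 0.05 in any tissue.

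Dnajc28 had the smallest unadjusted p in liver. Its levels were -2.36, -2.44 and -2.24 in the livers of WT mice D, E and F and -1.80, -1.38 and -1.37 in those of KI mice A, B and C. The groups did not overlap, as was the case for 9 of the 56 members in liver (5 higher and 4 lower in KI) and 19.7% of all genes. The difference was 0.83 (SE 0.16, unadjusted p = 0.00146, adjusted p = 0.339), and without the liver of KI mouse C, which held muscle transcripts, it was 0.76. In WT mice Dnajc28 was itself 5.03-fold higher in striated muscle than in liver and brain. In heart Dnajc28 was at -0.13, -0.29 and -0.05 in WT and -0.47, -0.71 and -0.30 in KI mice, without overlap in the opposite direction, as for 1 other member and 5.02% of all genes (-0.34, SE 0.15, adjusted p = 0.97). The test of a genotype effect that differs between tissues had an unadjusted p under 0.05 for Dnajc28 alone among the 64 members (1.56%, beside 1.91% of all genes), and its adjusted p was 1. The other members with an unadjusted p under 0.05 in liver were Dnajb4 (-0.40, SE 0.14), Dnaja2 (-0.37, SE 0.14) and Dnajc30 (0.27), each with an adjusted p of at least 0.396.

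In brain, the members of smallest p were Hspb1 (0.20, SE 0.12), Hspb2 (0.28, SE 0.21) and Hspa1l (-0.16, SE 0.13), all with an adjusted p of 1. Only Hspb1 had genotypes that did not overlap, which held for 2.94% of all genes in brain. In muscle they were Hspa12a (0.66, SE 0.34), Dnaja4 (0.32, SE 0.18) and Hspb9 (-0.72, SE 0.43), with adjusted p-values of 1. Hspa12a was well above background in 3 of 3 KI but 2 of 3 WT muscles. It thus entered the test only through the KI group, and its difference rests in part on an array at background. Genotypes did not overlap for 4 members in muscle, Hspa12a among them, beside 3.62% of all genes. For the mean of the tissues, Dnajb9 was lower in KI mice (-0.21, SE 0.09, unadjusted p = 0.0483, adjusted p = 0.983), followed by Dnajb3 (0.48, SE 0.23) and Dnajb4 (-0.21, SE 0.10). Dnajb3 was well above background on 0 of 6 liver and 2 of 6 muscle arrays, so its value rests in part on arrays at background.

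In heart, 4 of the 62 members had KI means above WT means and the others had KI means below, although none passed the test. The median difference was -0.10 over the members and -0.05 over all genes, of which 38.1% lay above 0. The heart of KI mouse B, which carried atrial and white fat transcripts, was the lowest of the 6 hearts for 38 of the 62 members. Without it the median over members was -0.04, that over all genes -0.01, and 24 of the 62 differences changed sign. Members of smallest p besides Dnajc28 were Dnajb8 (-0.88, SE 0.48) and Dnajb12 (-0.29, SE 0.17), with an adjusted p of 0.97. The slide and the age of the mice cannot be told apart in heart.

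**Figure D4:**
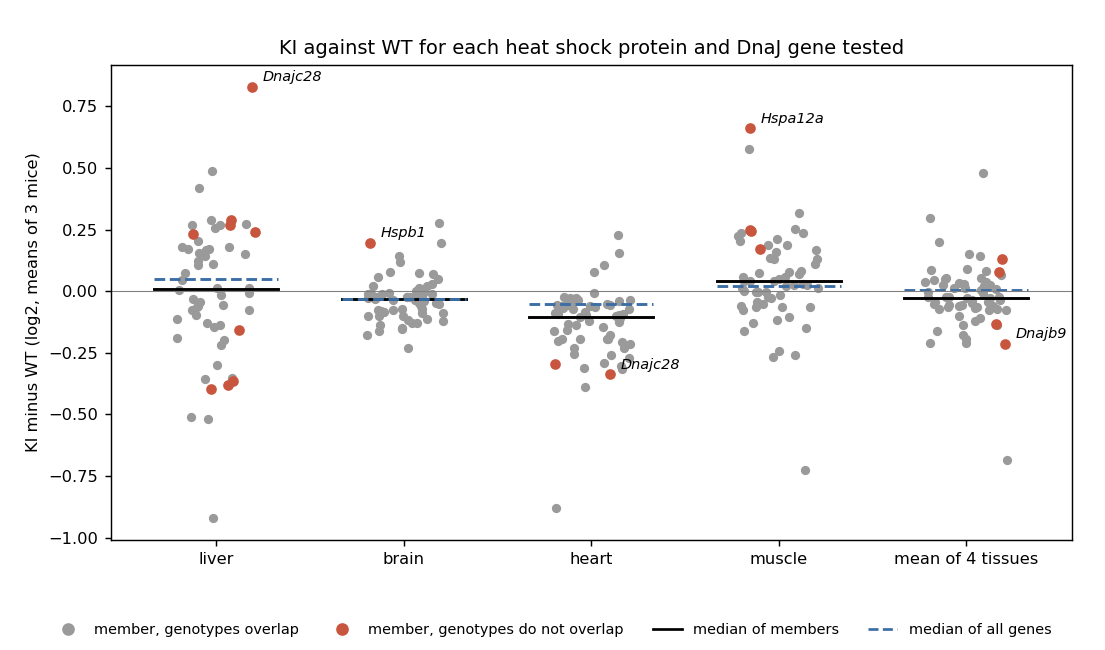
KI minus WT difference (log2, means of 3 mice) of each member tested, by tissue and for the mean of the 4 tissues, with red points for members whose genotypes do not overlap, black lines for the median of the members and dashed blue lines for the median of all genes. No point passed the test, the member of smallest unadjusted p is named in each column, and in heart 4 of 62 points lie above 0.

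Members differed in how much they varied between mice of 1 genotype. The SD over the 3 mice of a genotype, pooled over both genotypes, had a median over members of 0.23 in muscle, 0.21 in heart, 0.18 in liver and 0.18 in brain, beside 0.28, 0.22, 0.21 and 0.22 over all genes. In liver the SD was largest for Dnajb8 (1.71), which was well above background on 2 of 3 KI livers, so this SD rests in part on background. Next were Hspa1a (0.53), Hsph1 (0.49), Dnajc5 (0.49) and Dnajb1 (0.45), the DnaJ partner induced together with HSP70. In brain the SDs of Hspa1a, Hsph1 and Dnajb1 were 0.14, 0.14 and 0.15, at percentiles 23.1, 22.8 and 24.3 of all genes. Their percentiles were 90.5, 89 and 86.3 in liver, 92.8, 17.5 and 58.6 in heart, and 90.6, 63.7 and 61.1 in muscle. Hspa1a was at -3.17, -1.98 and -2.53 in the livers of WT mice D, E and F and at -3.52, -2.62 and -3.09 in those of KI mice A, B and C. Dnajb1 was at 3.36, 4.27 and 3.87 and at 3.27, 4.09 and 3.91 in the same order. Within each genotype the liver of mouse D or A was the lowest and that of mouse E or B the highest for both genes, and the genotypes overlapped.

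In heart Hspa1a was at -2.87, -1.71 and -2.49 in WT mice D, E and F and at -2.87, -1.74 and -2.53 in KI mice A, B and C. Its values in the 2 hearts with atrial transcripts, E and B, lay above the other 4, and the part of these transcripts in the value was not tested. In muscle Hspa1a was at 0.09 in KI mouse B, whose muscle carried mammary and brown fat transcripts. It lay between -1.67 and -0.71 in the other 5 mice. In brain its levels lay close together, from -0.91 to -0.47. Hspa8, the constitutive HSP70, had levels of 8.38 to 8.92 in muscle, 7.59 to 7.92 in heart, 7.35 to 8.46 in liver and 6.78 to 7.28 in brain.

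**Figure D5:**
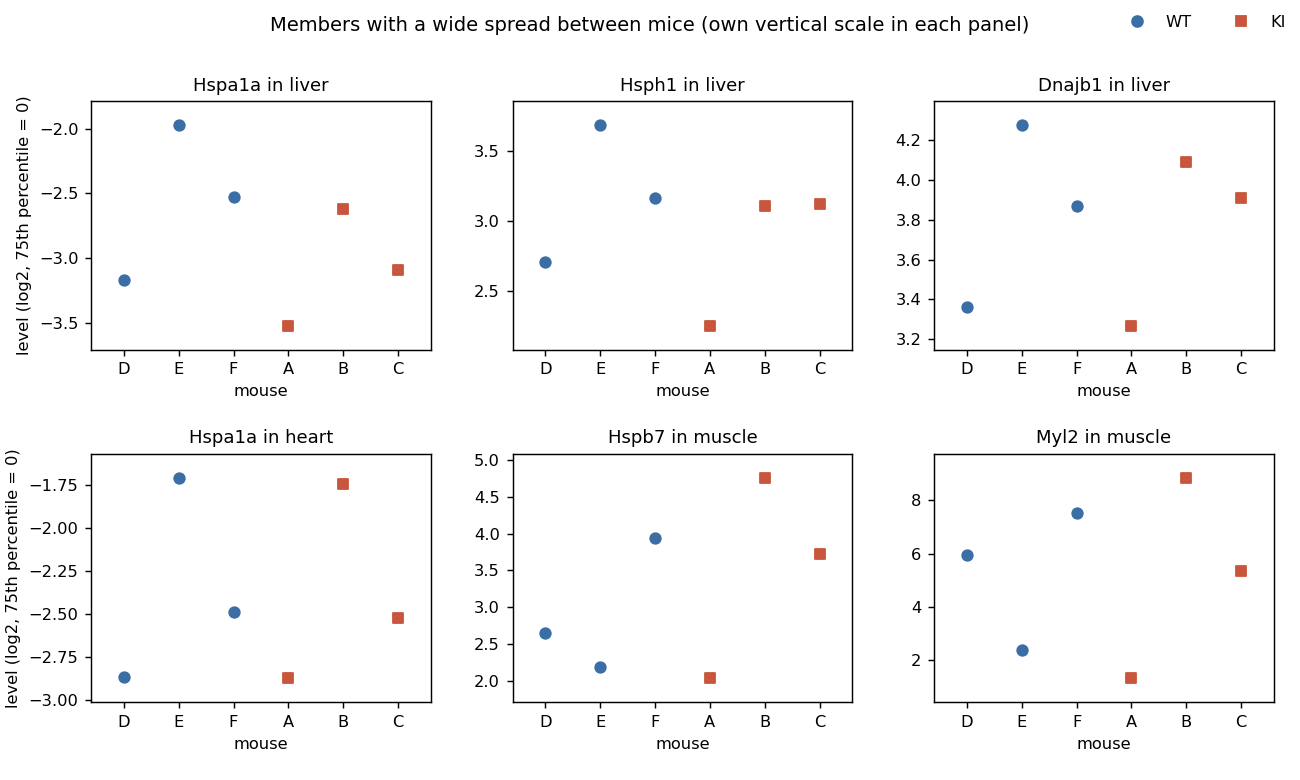
Levels (log2, 75th percentile of the array = 0, own vertical scale in each panel) of Hspa1a, Hsph1 and Dnajb1 in liver, Hspa1a in heart, and Hspb7 and the light chain Myl2 in muscle for each mouse, with circles for WT mice D, E and F and squares for KI mice A, B and C. Hspa1a and Dnajb1 in liver are lowest in mouse D among WT and mouse A among KI mice, and the muscles with the highest Hspb7 are also those with high Myl2.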

How the data were processed

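Total RNA of each sample was hybridised to 1 array. Per the file headers, the authors extracted intensity values with Agilent Feature Extraction 12.0.3.1; the deposited processed signal was background-corrected but not scaled across arrays. Median intensity of spot and background, also deposited, served an alternative, as did the table of scores deposited by the authors (z-scores of log signal). Here, control and outlier spots were left out, spots of a probe averaged (55681 probes) and log2 signal taken relative to the array's 75th percentile. Accessions were named through a RefSeq gene table of GRCm38.p6 (99.0% of 26732 curated mRNA probes), and the probe of highest mean stood for a gene. For 21 members several probes existed.

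Genes were tested if 1 or more groups had signal well above background on all 3 arrays, with limma 3.58.1 in R 4.3.3, two-sided, with Benjamini-Hochberg adjustment over all genes. Tissue calls used an adjusted p under 0.05 and a log2 difference of at least 1. Where dim arrays lay on the lower side only, their values were set to the array's lowest well-measured level for "at least" folds. An exact permutation test of 3 against 3 cannot give a two-sided p below 0.10, so none was used. Calls were tested on simulated data. The number of arrays limits the precision.

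Members, gene lists and tests were chosen with earlier results of these data known. Named were members fixed by role, up to 6 per direction of each tissue contrast whose groups did not overlap, and the 3 of smallest p per genotype comparison; others were named after their values were seen. Arrays of a number came from the same mouse. Over 11617 genes, deviations correlated by 0.0204 on average within a mouse (-0.26 to 0.34), and the consensus correlation was -0.0304 over the WT arrays. The genotypes share no mouse. Alternatives covered normalization, background, scores, probes, filters, fold threshold, blocks and left-out samples.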

Additional observations from a re-analysis of the deposited data

Results flagged for a closer look

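The KI minus WT difference of Dnajc28 was 0.83 in liver and -0.34 in heart, and in each tissue the 3 mice of 1 genotype lay on one side of the 3 of the other, in opposite directions. By the moderated F-test for a genotype effect that differs between tissues, Dnajc28 had an unadjusted p of 0.000722 and an adjusted p of 1. It was the only 1 of 64 members with an unadjusted p under 0.05 (1.56%, beside 1.91% of all genes), and 0 of 64 members passed after adjustment, beside 0% of all genes. Leaving out 1 liver at a time gave 0.76 to 0.97.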

How the results depend on the processing

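Of 630 recomputed values of 56 single-member results, 616 kept their call, and 168 of 185 counts stayed within 1.5 times. A replicate block for the mouse gave the same counts, 8 higher and 29 lower members in brain, 8 and 17 in liver, 22 and 3 in striated muscle, and 7 and 11 in heart against muscle, and the block changed no other call either. The genotype comparisons gave 0 members under every alternative, but the 4 members with an unadjusted p under 0.05 in liver became 1 without KI mouse A or C and 8 without WT mouse E, and in heart 6 passed without KI mouse C. The shares of all genes in these settings are not given here, so these counts do not set the members apart from other genes.

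The sign of Dnajc5b in heart against muscle reversed with normexp background correction (-0.10), and Dnajb3 was at 0.26 (adjusted p = 0.442). With quantile normalization, Dnaja1 (0.90) and Dnajb11 (0.91) in liver lay below the fold threshold, and in the KI arrays so did Hspa5 in heart against muscle (0.67). Quantile normalization moved the median of all genes from -0.28 to -0.06 in brain (members from -0.83 to -0.61), from 0.08 to -0.05 in striated muscle (members from 0.55 to 0.32) and from -0.08 to 0.08 in heart against muscle (members from -0.13 to 0.09). With the mean of all probes the median of members moved to -0.52 in brain and 0.35 in striated muscle, with all genes at -0.28 and 0.08. Without the fold threshold, 16 members were higher in brain, 21 higher and 32 lower in liver, 38 higher and 14 lower in striated muscle, and 15 higher and 17 lower in heart than in muscle. Requiring signal on all 12 WT arrays left 4 higher in brain, 9 lower in liver, 1 lower in striated muscle, and 3 higher and 7 lower in heart. Members lower in striated muscle numbered 5 with quantile normalization and 5 with the mean of all probes. Deposited scores gave 5 members higher in liver, and the KI arrays 3 higher in heart than in muscle. Apart from the fold threshold and the signal requirement, which change the calls by construction, the cause was not tested. Leaving out 1 mouse gave 2 to 5 members lower in striated muscle (5 without mouse E). Without the fold threshold, 13679 of all 17096 genes were called in either direction in brain and 13355 in liver. In striated muscle 13251 were called, and in heart against muscle 9323. Shares over all genes by direction are not given here for the alternatives, so their counts do not set the members apart from other genes. Signal over background limits Dnajc6, Dnajc22, Dnajb3, Dnajc5b, Hspb3, Hspb7, Hspa1l and Hspa12a, whose folds are bounds. It also limits the SD of Dnajb8 in liver.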

Other observations

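In the numbers that the labels give the mice, KI mouse A lies next to WT mouse D, KI mouse B next to WT mouse E, and KI mouse C next to WT mouse F. In heart, Hspa1a was at -2.87 in both A and D, at -1.74 and -1.71 in B and E, and at -2.53 and -2.49 in C and F. In liver the same mice had -3.52 and -3.17, -2.62 and -1.98, and -3.09 and -2.53. There, C lay nearer to D than to F, and B nearer to F than to E. In muscle C and F lay together, at -0.77 and -0.71. The other neighbours did not, with B at 0.09 and E at -1.22, and A at -1.67 and D at -1.08. The labels do not say whether neighbouring numbers mark a litter or a day. The pattern was noticed after the values were seen and was not tested.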
